A study of Mus musculus with 14 samples.

Results

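The genes of the MHC class II pathway were followed across macrophages grown from mouse bone marrow, with and without a TFEB transgene and with and without material from a mammary tumour. The 9 genes are the chains H2-Aa, H2-Ab1 and H2-Eb1, the invariant chain Cd74, the peptide-loading chains H2-DMa, H2-DMb1, H2-Oa and H2-Ob, and the class II transactivator Ciita. They were taken by the RefSeq accession of their probes, and all 9 are among the 21356 genes with a symbol on the array. Of the 9, 8 passed the filter on dim probes and are among the 15826 genes tested, and H2-Ob did not pass.

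All cells were macrophages differentiated with M-CSF from the marrow of C57BL/6 females, 8 weeks of age, that carry LysM-Double-Cre, a Cre recombinase driven by the promoter of the myeloid lysozyme gene. The transgenic genotype is LysM-Double-Cre x TFEB transgene+, and the wild-type one, which has the Cre too, is LysM-Double-Cre x TFEB transgene-. For 24 h the cells were kept in DMEM only (control) or in DMEM with supernatant and lysate of EO771 cells, a mouse mammary tumour line (tumour material). The 14 one-colour arrays hold 3 wild-type control, 3 wild-type tumour, 3 transgenic control and 2 transgenic tumour replicates. In all groups but the transgenic control, replicate 3 was read on 2 arrays. These count as 1 replicate in the levels, sums and correlations, and enter the tests as 2 correlated arrays. Transgenic tumour replicate 1 is not analysed here. The labels call the replicates biological but do not name the animals behind them.

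MHC class II molecules present peptides from endocytosed material to CD4 T cells. An alpha and a beta chain assemble on the invariant chain, which blocks the groove and steers the complex to endosomes, where proteases trim it and the DM heterodimer exchanges the remaining fragment for a peptide. The DO heterodimer, built from H2-Oa and H2-Ob, restrains DM. Transcription of H2-Aa, H2-Ab1, H2-Eb1, Cd74 and both DM chains depends on Ciita. It is a coactivator that joins factors bound at the X and Y boxes of their promoters. Macrophages raise these genes in response to interferon gamma. C57BL/6 mice lack a functional H2-Ea, so that H2-Eb1 has no partner for a surface H2-E molecule in this strain. H2-Ea itself is not analysed here.

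The X and Y boxes are shown first, because Ciita acts through factors bound at them. A promoter window of 300 bases, from 250 before to 50 after the start of the gene, was read for 6 of the 9 genes in RefSeq on GRCm38.p6. H2-Ab1, Cd74 and Ciita were not matched. The letters GNAAC of the X box were searched on both strands together with the letters ATTGG of the Y box, which is CCAAT read on the other strand, starting 30 to 36 bases further on. The 2 motifs do not overlap in a pair, and the range of spacings was chosen after the windows of these genes had been seen. The pair stood in the windows of 5 of the 6 genes, on the strand of the gene each time. Capitals mark the X letters first and the Y letters second.
H2-Aa: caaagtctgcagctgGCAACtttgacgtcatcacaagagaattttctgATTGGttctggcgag
H2-Eb1: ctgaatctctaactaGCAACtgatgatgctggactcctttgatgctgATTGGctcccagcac
H2-DMb1: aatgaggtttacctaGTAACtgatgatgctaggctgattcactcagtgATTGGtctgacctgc
H2-Oa: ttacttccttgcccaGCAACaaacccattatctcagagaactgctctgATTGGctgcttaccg
H2-Ob: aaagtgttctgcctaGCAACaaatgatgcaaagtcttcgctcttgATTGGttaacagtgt
These stretches lie at chr17:34287857-34287919 (minus strand, H2-Aa), chr17:34305761-34305822 (plus, H2-Eb1), chr17:34153082-34153144 (plus, H2-DMb1), chr17:34092288-34092350 (plus, H2-Oa) and chr17:34238803-34238862 (plus, H2-Ob).

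From the start of the X letters to the start of the Y letters there are 33 bases in H2-Aa, H2-DMb1 and H2-Oa, 32 in H2-Eb1 and 30 in H2-Ob. The free letter N of the X motif is C in 4 of these genes and T in H2-DMb1. Among all 32851 windows of this length, 1.25% hold the pair on either strand, while ATTGG alone is in 37.4% and GNAAC alone in 84.8%. Neither of the 2 windows of H2-DMa holds the pair. A match describes the letters of the window and does not show that a factor bound there.

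Levels are log2 signal relative to the 75th percentile of each array, so that 0 is the signal at that percentile. Levels of different probes are not compared. Between 35.5% and 40.2% of spots per array lay well above background and none was saturated. TFEB itself was measured at 0.80 to 0.97 in wild-type controls and 0.84 to 1.35 in transgenic controls, which overlap (log2 difference 0.31 ± 0.13 SE, adjusted p = 0.165 in limma). With tumour material Tfeb was higher in transgenic cells, at -0.14 and -0.01 against -0.73 to -0.62 (0.69 ± 0.16 SE, adjusted p = 0.0266 in limma). Markers of macrophages summed to 1746 to 2244 times the 75th percentile in wild-type controls and 1483 to 1787 in transgenic controls. With tumour material they summed to 2174 to 2355 and 1996 to 2027. These sums follow the brightest probes most, and single markers moved. Of 9 tested, 4 were called higher and 2 lower with tumour material in wild-type cells, against 23.2% and 16.7% of all genes. Mean Cx3cr1 went from 2.87 to -1.05 and mean Itgam from 3.71 to 5.85. In control medium 3 of the 9 were called lower in transgenic than in wild-type cells and none higher, with and without transgenic control replicate 1. Of all genes 5.23% were called lower there, and 9.54% without that replicate. Mean Cx3cr1 was 0.95 and mean Itgam 2.38 in transgenic controls. In bulk RNA, fewer cells of a type and less RNA per cell cannot be told apart.

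Transgenic control replicate 1 stands apart. Over all genes tested it correlates at 0.959 and 0.957 with the other 2 transgenic controls, which correlate at 0.981 with each other, and it holds the lowest value of all 11 replicates for H2-Aa, H2-Ab1, H2-Eb1 and Cd74. All 11 tested markers of neutrophils and their precursors were higher in it than in transgenic control replicates 2 and 3, with a summed signal of 579 against 179 and 198, and 239 to 257 in wild-type controls. The B cell markers summed to 10.6 in it, through Cd79b, and to 3.34 to 4.94 in the other controls. Cd22, the other B cell marker tested, was lower in it (-0.88) than in transgenic controls 2 and 3 (-0.73 and -0.41), and Cd79a, Ms4a1, Pax5 and Ebf1 were not above background on any array. Their part in the low class II values of this replicate was not tested. Transgenic control replicate 2 lies in the same column of the same slide, and its class II values were near those of replicate 3. The differences of the members are therefore given with and without transgenic control replicate 1. The calls of other genes named below, read by their brightest probes, were kept without it.

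**Figure D1:**
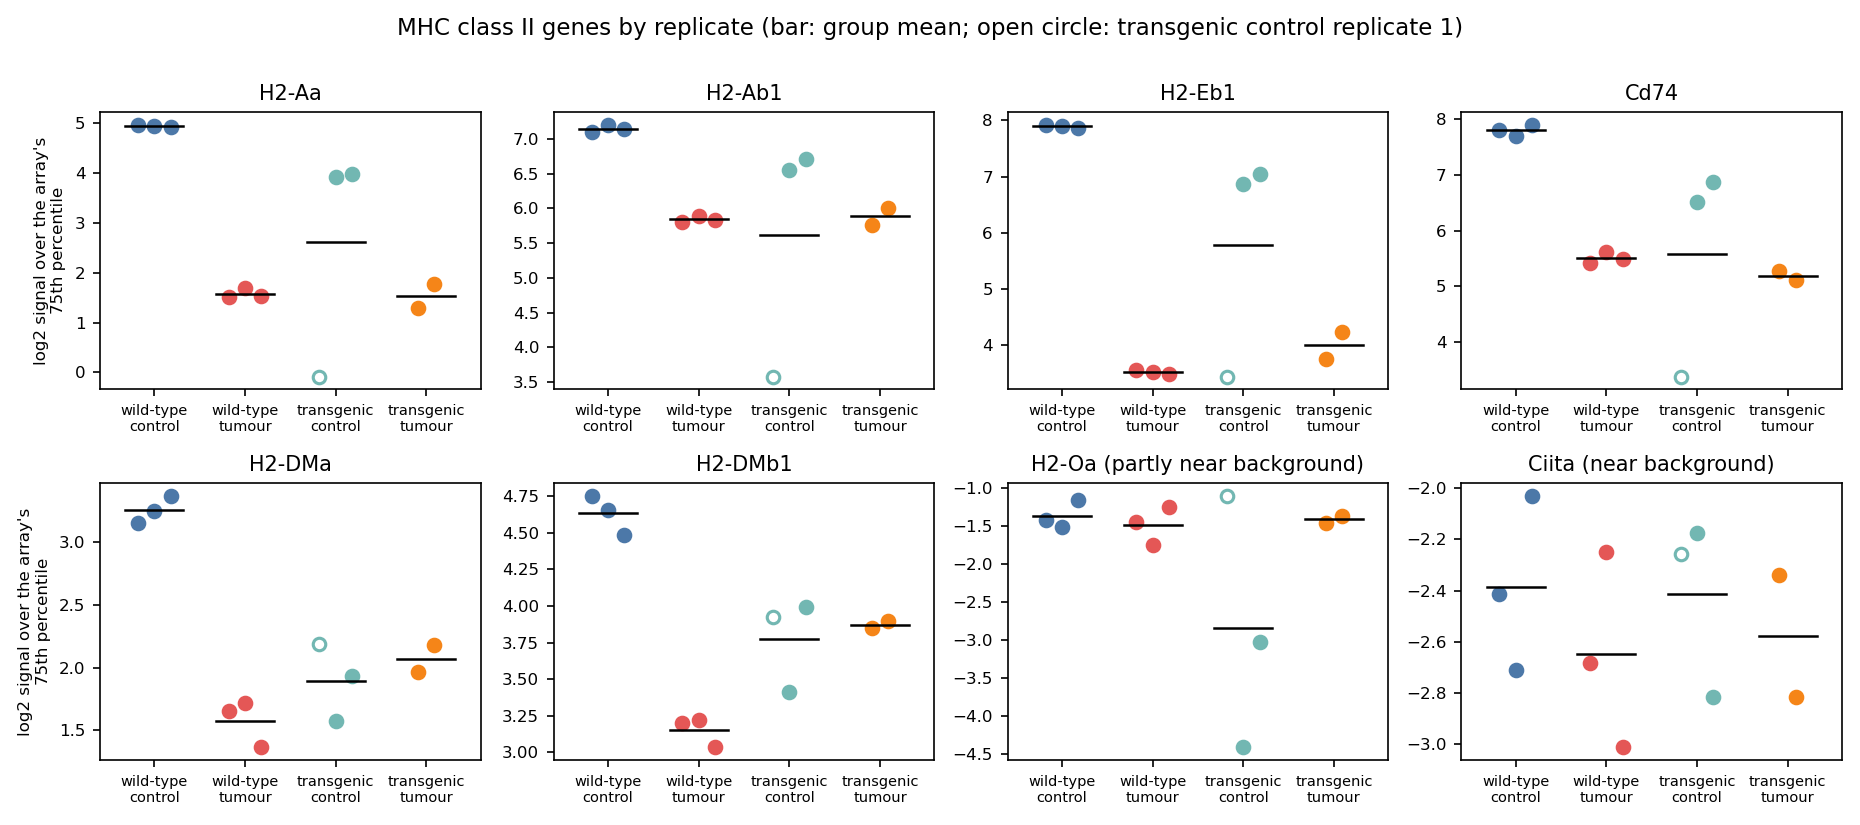
Log2 signal over the 75th percentile of the array (vertical axes, which differ in range) of 8 MHC class II pathway genes in the 4 groups, 1 point per replicate and a bar at the group mean. The open circle is transgenic control replicate 1, which is lowest of all for H2-Aa, H2-Ab1, H2-Eb1 and Cd74 but not for H2-DMa, H2-DMb1 or H2-Oa.

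The first comparison asks what tumour material did to the pathway in wild-type macrophages. H2-Aa, H2-Eb1, Cd74 and both DM chains fell after 24 h with tumour material, from 20.7-fold for H2-Eb1 to 2.78-fold for H2-DMb1. H2-Ab1, H2-Oa and Ciita did not pass the test with all arrays. Of all genes tested, 58% had no overlap between these groups, as H2-Ab1 and the 5 genes that passed had none. In all, 5 of the 8 tested genes fell and none rose, and 6 fell without transgenic control replicate 1. Of all 15826 genes 16.7% were called lower in this comparison, and 21.6% without that replicate. The median log2 difference was -1.61 over the 8 genes and 0.05 over all genes.

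H2-Eb1, the beta chain of H2-E, stood at 7.92, 7.90 and 7.87 in the wild-type controls and at 3.57, 3.53 and 3.49 with tumour material. The groups were far apart, and the replicates of each lay close together. The log2 difference was -4.37 ± 0.59 (SE, adjusted p = 0.000115 in limma), and -4.37 ± 0.11 without transgenic control replicate 1. H2-Aa, the alpha chain of H2-A, was at 4.97, 4.94 and 4.93 in controls and at 1.52, 1.70 and 1.53 with tumour material. This is a fall of 10.4-fold (log2 difference -3.37 ± 0.68 SE, adjusted p = 0.00201 in limma). Without that replicate the value was -3.38 ± 0.11.

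H2-Ab1 encodes the partner of H2-Aa. Its brighter probe read 7.11, 7.20 and 7.14 in controls and 5.81, 5.89 and 5.84 with tumour material. The log2 difference of -1.30 ± 0.51 (SE) had an adjusted p of 0.0626 in limma. All 4 groups share 1 estimate of the spread in this fit, and without transgenic control replicate 1, 2 or 3 the same difference passed, with adjusted p = 3.22e-07, 0.0220 and 0.0371 in limma. A second probe of H2-Ab1 read 6.58, 6.60 and 6.49 in controls and 4.99, 4.95 and 5.14 with tumour material. That probe passed the test with all arrays (-1.49 ± 0.45 SE, adjusted p = 0.0212 in limma).

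Cd74, the invariant chain that also serves as a surface receptor for the cytokine Mif, was at 7.81, 7.70 and 7.90 in controls. With tumour material it was at 5.43, 5.62 and 5.48, a fall of 4.99-fold (log2 difference -2.32 ± 0.55 SE, adjusted p = 0.00557 in limma). The difference was -2.33 ± 0.10 without transgenic control replicate 1. Without wild-type tumour replicate 3 the difference was -2.05 with adjusted p = 0.0612.

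Both DM chains fell in these cells with small errors. H2-DMa was at 3.15, 3.25 and 3.37 in controls and 1.65, 1.72 and 1.36 with tumour material (log2 difference -1.75 ± 0.15 SE, adjusted p = 3.4e-06 in limma). H2-DMb1 was at 4.75, 4.66 and 4.49 in controls and 3.20, 3.22 and 3.03 with tumour material (-1.47 ± 0.15 SE, adjusted p = 1.04e-05 in limma). The differences were -1.79 ± 0.13 and -1.47 ± 0.13 without transgenic control replicate 1.

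H2-Oa, the alpha chain of DO, was dim in wild-type cells but above background on all 8 of their arrays. It read -1.43, -1.52 and -1.16 in controls and -1.45, -1.75 and -1.26 with tumour material, and these ranges overlap (log2 difference -0.11 ± 0.51 SE, adjusted p = 0.881 in limma). The standard error was 0.15 and the adjusted p 0.572 without transgenic control replicate 1. H2-Ob, the beta chain of DO, was not above background on any of the 14 arrays with either of its 2 probes, and no difference is given for it. Ciita was near background as well, being well above it on 3 of 4 wild-type control arrays and 2 of 4 wild-type tumour arrays. Its levels were -2.41, -2.71 and -2.03 in controls and -2.68, -2.25 and -3.01 with tumour material (-0.43 ± 0.28 SE, adjusted p = 0.261 in limma, and -0.51 ± 0.27 without that replicate), and the probe passed the filter only through the transgenic controls.

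The wild-type arrays lie on 2 slides, so the response was also taken within each. On the first slide alone the log2 differences were -3.33 for H2-Aa, -1.34 for H2-Ab1, -4.39 for H2-Eb1, -2.26 for Cd74, -1.69 for H2-DMa and -1.49 for H2-DMb1. On the second slide alone they were -3.52, -1.18, -4.30, -2.51, -1.97 and -1.42 in the same order. The second slide holds 1 array of each wild-type group, both repeat arrays of the replicates numbered 3, and its spread comes from the transgenic tumour arrays alone, so its values are not a second test. On the first slide the same 5 genes passed as with all arrays.

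**Figure D2:**
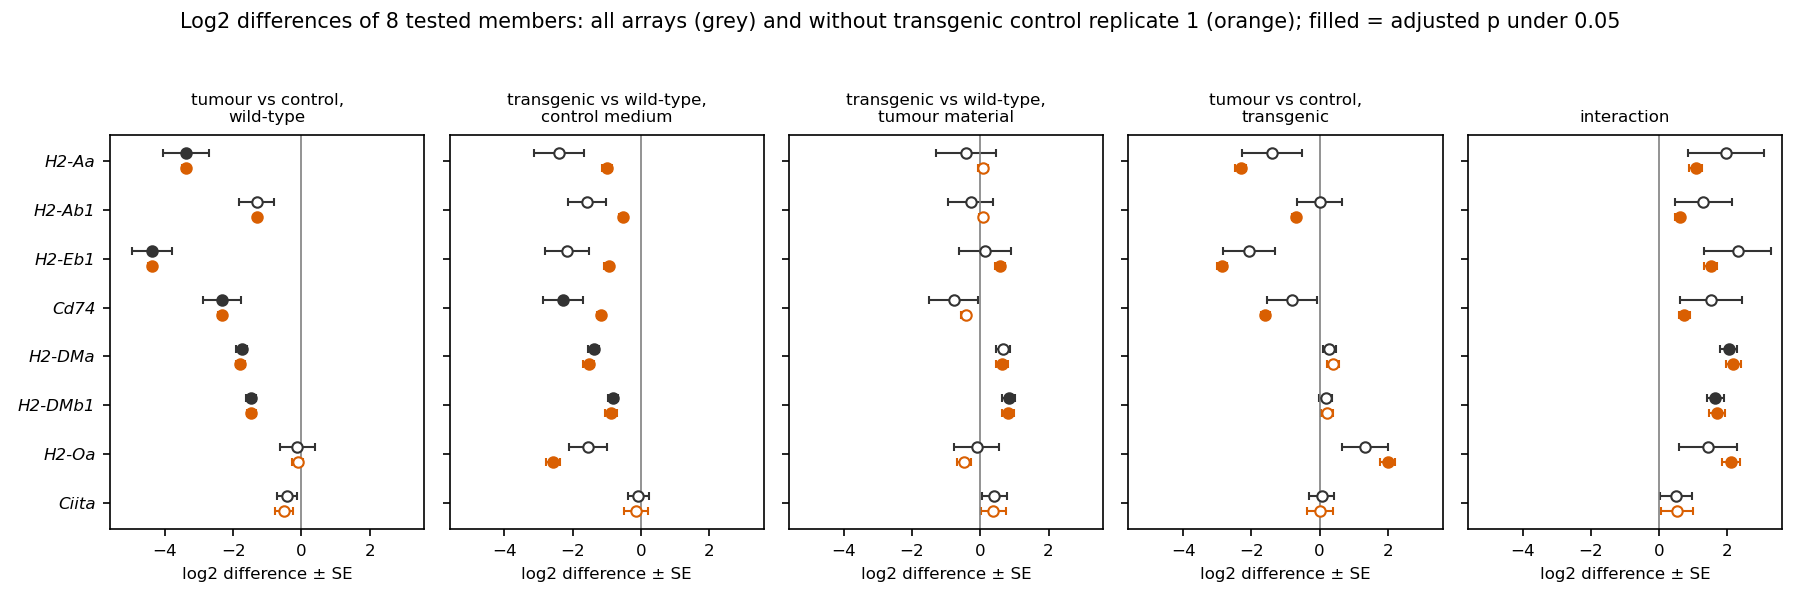
Log2 differences with their standard errors (horizontal axes) of the 8 tested genes in 5 contrasts, with all arrays in grey and without transgenic control replicate 1 in orange, and filled where the adjusted p is under 0.05. The log2 differences of the wild-type response hardly move between both fits. In the other contrasts, also the one with tumour material, those of H2-Aa, H2-Ab1, H2-Eb1 and Cd74 move, while those of H2-DMb1 hardly do.

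The second comparison asks what the transgene did in control medium. Cd74, H2-DMa and H2-DMb1 were lower in transgenic than in wild-type control macrophages, being 3 of 8 genes that passed with all arrays. For these and for H2-Aa, H2-Ab1 and H2-Eb1 every transgenic control replicate lay below every wild-type one, and 21.5% of all genes had no overlap in this comparison. Without transgenic control replicate 1, 7 of 8 passed, all lower, the exception being Ciita. The shares of all genes called lower were 5.23% and 9.54%. The median log2 difference of the 8 genes was -1.56 with all arrays and -0.96 without that replicate, against -0.03 and -0.04 over all genes.

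H2-DMa gave the clearest difference here. It read 2.19, 1.57 and 1.93 in transgenic controls, and the wild-type controls began at 3.15 (2.59-fold lower, log2 difference -1.37 ± 0.16 SE, adjusted p = 0.000398 in limma). H2-DMb1 read 3.92, 3.41 and 3.99 against a lowest wild-type value of 4.49 (1.76-fold lower, -0.82 ± 0.16 SE, adjusted p = 0.0079 in limma). For both DM chains transgenic control replicate 1 lay near the other 2, and without it the differences were -1.53 ± 0.16 and -0.87 ± 0.17.

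The chains and Cd74 behaved otherwise, because replicate 1 is far below the other 2 transgenic controls. H2-Aa was at -0.08 in replicate 1 and at 3.92 and 3.98 in replicates 2 and 3. H2-Eb1 was at 3.45, 6.86 and 7.04. H2-Ab1 was at 3.58, 6.55 and 6.71 with its brighter probe and at 3.43, 6.10 and 5.90 with the other. All 4 replicate 1 values of these probes are also below every value measured with tumour material. With all arrays the log2 differences to wild-type controls were -2.39 ± 0.73 for H2-Aa, -1.58 ± 0.55 for H2-Ab1 and -2.16 ± 0.63 for H2-Eb1 (SE), with adjusted p = 0.0641, 0.0998 and 0.0563 in limma. Without replicate 1 they were smaller and passed, at -0.99 ± 0.15, -0.52 ± 0.11 and -0.94 ± 0.14, with adjusted p = 0.000997, 0.00741 and 0.00107. Leaving out transgenic control replicate 2 or 3 instead gave calls too, at -3.23 and -3.03 for H2-Aa, -2.18 and -2.09 for H2-Ab1 and -2.85 and -2.75 for H2-Eb1.

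Cd74 read 3.39, 6.51 and 6.87 in transgenic controls and passed with all arrays (4.88-fold lower, log2 difference -2.29 ± 0.59 SE, adjusted p = 0.0343 in limma). Without replicate 1 the difference was -1.17 ± 0.13 with adjusted p = 0.000121. That call did not hold without wild-type control replicate 1, 2 or 3 (adjusted p = 0.0797, 0.0645 and 0.145), wild-type tumour replicate 1 or 3 (0.0568 and 0.0513) or transgenic tumour replicate 3 (0.108).

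H2-Oa went the other way among the transgenic controls. Replicate 1, at -1.10, was at the wild-type level, while replicates 2 and 3, at -4.41 and -3.03, were not well above background. With all arrays the log2 difference to wild-type controls was -1.55 ± 0.55 (SE, adjusted p = 0.107 in limma). Without replicate 1 only a bound remains for the transgenic controls, by which H2-Oa was 3.87-fold lower in them than in wild-type controls. The measured means were -3.72 and -1.37 (adjusted p = 1.42e-05 in limma). The bound sets, on each dim array, the lowest signal well above background in place of a lower one. A dim value above that signal stays as measured, so the bound is approximate. Adjusted p-values given beside bounds come from the fit of the measured values. Ciita was at -2.26, -2.17 and -2.81 and overlapped wild-type controls (-0.07 ± 0.31 SE, adjusted p = 0.916 in limma, and -0.14 ± 0.35 without replicate 1).

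Slide 1 holds 2 of the transgenic controls and slide 2 the third. Those on slide 1 both lie in column 4, which holds no wild-type array. Genotype and column can therefore not be told apart within slide 1. With column 4 as a term for all arrays, H2-DMa passed (-1.26, adjusted p = 0.00651 in limma). H2-DMb1 (-0.61, adjusted p = 0.0754) and Cd74 (-1.76, adjusted p = 0.231) did not. Within slide 1 the differences of H2-DMa and H2-DMb1 were -1.42 and -1.01 and passed, and those of H2-Aa, H2-Ab1, H2-Eb1 and Cd74 were -3.00, -2.11, -2.76 and -2.84 and did not. Within slide 2, which sets 1 transgenic control array against 1 wild-type control array and where no gene in the whole table passed, they were -1.01, -0.36, -0.79, -1.05, -1.31 and -0.35 for H2-Aa, H2-Ab1, H2-Eb1, Cd74, H2-DMa and H2-DMb1.

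The third comparison sets transgenic against wild-type macrophages with tumour material. Of the 8 genes H2-DMb1 alone passed with all arrays, at 3.85 and 3.89 in transgenic cells and 3.03 to 3.22 in wild-type cells (1.78-fold higher, log2 difference 0.83 ± 0.19 SE, adjusted p = 0.0273 in limma). Without transgenic control replicate 1 the difference was 0.82 ± 0.17 (adjusted p = 0.0117). The share of all genes called higher was 1.96%, and 6.03% without transgenic control replicate 1. The median log2 difference over the 8 genes was 0.01 with all arrays and 0.23 without that replicate.

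H2-DMa was at 1.97 and 2.18 against 1.36 to 1.72 (0.66 ± 0.19 SE, adjusted p = 0.0844 in limma). Both DM chains and H2-Eb1 had no overlap and lay higher in transgenic cells, Cd74 had none and lay lower, and 48% of all genes had none in this comparison. Without transgenic control replicate 1 it passed, at 0.64 with adjusted p = 0.0297. H2-Eb1, at 3.76 and 4.24 against 3.49 to 3.57, differed by 0.14 ± 0.76 with all arrays and passed without that replicate, at 0.57 with adjusted p = 0.0251. H2-DMa passed also without transgenic control replicate 2 (0.75, adjusted p = 0.0111). H2-Aa was at 1.30 and 1.78, H2-Ab1 at 5.76 and 6.01 and Cd74 at 5.28 and 5.11, and their log2 differences were -0.42 ± 0.88, -0.28 ± 0.66 and -0.78 ± 0.71 (SE). The fit has a slide term, and for H2-Ab1 its value is below 0 although the group means were 5.89 in transgenic and 5.85 in wild-type cells. Without transgenic control replicate 1 the differences were 0.08 ± 0.15 for H2-Aa, 0.08 ± 0.11 for H2-Ab1 and -0.42 ± 0.13 for Cd74 (adjusted p = 0.764, 0.670 and 0.0567 in limma). H2-Oa, at -1.46 and -1.37, and Ciita, at -2.34 and -2.82, overlapped the wild-type values. Their differences were -0.11 ± 0.67 and 0.42 ± 0.37 with all arrays and -0.47 ± 0.21 and 0.39 ± 0.36 without that replicate, and neither passed.

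The call for H2-DMb1 was not stable. Leaving out wild-type control replicate 3 ended it (0.76, adjusted p = 0.0609), as did leaving out wild-type tumour replicate 1 or 3 (0.85 and 0.69, adjusted p = 0.0605 and 0.377) or transgenic tumour replicate 2 or 3 (0.85 in each case, adjusted p = 0.0510 and 0.266). All transgenic tumour arrays lie on slide 2, where the difference was 0.94 with adjusted p = 0.176.

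Within transgenic cells, no member passed between tumour material and control with all arrays. The share of all genes called either way, at adjusted p under 0.05, was 25.3%. At an unadjusted p under 0.05 H2-Eb1 alone of the members passed, and the share of all genes at that threshold was not taken. Without transgenic control replicate 1, 5 of 8 passed, against 33.4% of all genes. The chains and Cd74 fell and H2-Oa rose. H2-Eb1 fell by 2.86 ± 0.16 on the log2 scale (SE, adjusted p = 2.32e-07 in limma), H2-Aa by 2.31 ± 0.16, Cd74 by 1.59 ± 0.14 and H2-Ab1 by 0.70 ± 0.12. By the same bound as above, H2-Oa was 3.75-fold higher with tumour material (adjusted p = 5.06e-05 in limma for the measured values). It was not well above background on any control array in that fit. H2-DMa and H2-DMb1 differed by 0.38 ± 0.18 and 0.21 ± 0.19 there and did not pass (adjusted p = 0.132 and 0.426).

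The interaction term compares both responses directly, and above 0 it means a smaller fall, or a larger rise, in transgenic cells. With all arrays it passed for H2-DMa at 2.04 ± 0.25 (SE, adjusted p = 0.0017 in limma) and for H2-DMb1 at 1.65 ± 0.24 (adjusted p = 0.00429), and 1.02% of all genes were called in this direction. Both DM chains fell with tumour material in wild-type cells and did not pass in transgenic cells. The median of the 8 genes was 1.58, against 0.02 over all genes.

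For the other members the interaction was 1.97 ± 1.12 for H2-Aa, 1.30 ± 0.84 for H2-Ab1, 2.30 ± 0.97 for H2-Eb1, 1.51 ± 0.91 for Cd74, 1.44 ± 0.85 for H2-Oa and 0.48 ± 0.47 for Ciita (SE), none of which passed. Without transgenic control replicate 1 it passed for 7 of 8 genes, all but Ciita, against 4.06% of all genes. The values then were 2.17 for H2-DMa, 1.69 for H2-DMb1, 1.52 for H2-Eb1, 1.07 for H2-Aa, 0.74 for Cd74 and 0.60 for H2-Ab1. The H2-Oa value of 2.10 rests on transgenic control arrays where it was not well above background. The call for H2-DMa was lost without transgenic tumour replicate 3 (1.88, adjusted p = 0.0572), and that for H2-DMb1 without transgenic tumour replicate 3 (1.68, adjusted p = 0.0813) or wild-type tumour replicate 3 (adjusted p = 0.0939). Neighbouring contrasts share a group of samples, so they are not independent of each other.

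How the members varied together over the 11 replicates is described by Pearson correlations, which share the arrays and their scaling. H2-DMa and H2-DMb1 correlated at 0.941 with each other, and at 0.438 to 0.751 with H2-Aa, H2-Ab1, H2-Eb1 and Cd74. Those 4 correlated at 0.786 to 0.974 among themselves, and at 0.955 to 0.993 without transgenic control replicate 1. Without that replicate the DM chains came closer to them, at 0.752 to 0.839. H2-Oa followed neither set, at -0.329 to -0.211 with the chains and Cd74 and 0.361 and 0.219 with H2-DMa and H2-DMb1. Ciita correlated at -0.06 to 0.291 with the 6 bright members, which at its low signal is no measure of how its activity varied.

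The genes whose pattern over the 11 replicates was most like the mean of H2-Aa, H2-Ab1, H2-Eb1 and Cd74 were Prxl2a (r = 0.986), Stac2 (0.975), 2810025M15Rik (0.975), Osbpl5 (0.968), Bex1 (0.968) and Vwf (0.964). Prxl2a read 4.91, 5.06 and 5.01 in wild-type controls, 3.86, 3.94 and 3.90 in wild-type tumour samples, 3.54, 4.45 and 4.68 in transgenic controls and 3.83 and 3.86 in transgenic tumour samples. It shows the same low replicate 1 as the chains do, as do the other 5 genes. Choosing genes by their correlation over all 11 replicates favours those with this low value, so it is no separate finding. Prxl2a still correlated at 0.992 without transgenic control replicate 1, while the other 5 genes ranked between 34 and 186, with correlations up to 0.981. Itga4 (0.995), Cnnm2 (0.994), Ltf (0.993) and Otulinl (0.993) were then nearer. With all replicates they correlated at 0.519, 0.834, 0.508 and 0.608 in the same order. Ltf is the lactoferrin of neutrophil granules.

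**Figure D3:**
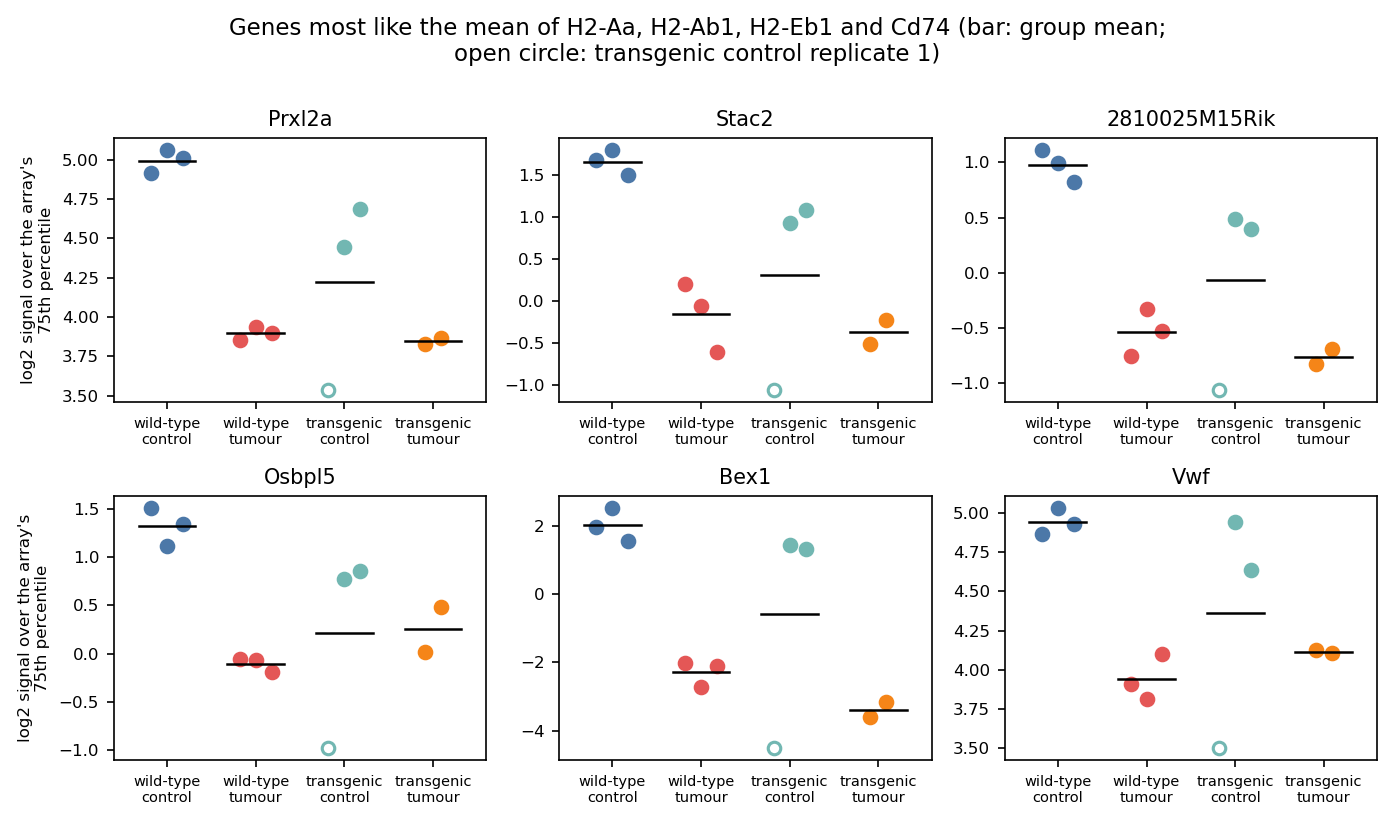
Log2 signal over the 75th percentile of the array (vertical axes, which differ in range) of the 6 named genes most correlated with the mean of H2-Aa, H2-Ab1, H2-Eb1 and Cd74, by group, 1 point per replicate with a bar at the group mean. In all 6 panels transgenic control replicate 1, the open circle, is the lowest of the 11 points, which the choice of genes by this correlation favours.

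Around the members, none of 4 genes that process antigen passed in the wild-type response with all arrays, counting the proteases Ctss, Ctsl and Lgmn and the thiol reductase Ifi30. Ctss, which cleaves the invariant chain, differed by -0.32 ± 0.22 (SE, adjusted p = 0.274 in limma). Ctsl differed by 0.71 ± 0.28 and Ifi30 by -0.49 ± 0.27 (adjusted p = 0.0642 and 0.164), without overlap in either. Both passed without transgenic control replicate 1, at 0.71 ± 0.25 and -0.49 ± 0.13 (adjusted p = 0.0342 and 0.0074). Of other class II chains, H2-Eb2 was not above background on any array and H2-DMb2 on 1, and neither was tested.

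Genes of class II turnover at the surface moved in wild-type cells. Cd83, which keeps class II at the surface by holding back its ubiquitination, was at 4.05, 4.43 and 3.74 in controls and 2.00, 1.69 and 1.84 with tumour material (4.46-fold lower, log2 difference -2.16 ± 0.27 SE, adjusted p = 6.94e-05 in limma). It fell by 2.58 ± 0.36 in transgenic cells too (adjusted p = 0.000258 in limma). Marchf1, the ligase that ubiquitinates class II chains, has 2 probes above background, and they moved in opposite directions. The brighter one rose (4.49, 4.32 and 4.69 against 6.48, 6.47 and 6.49, log2 difference 1.94 ± 0.24 SE, adjusted p = 6.02e-05 in limma), and the other fell (-2.30 ± 0.27 SE, adjusted p = 4.6e-05 in limma). In transgenic cells they did the same, at 2.30 and -1.72. No direction can be given for Marchf1 as a gene. Marchf8 did not pass in either response.

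Ciita works with factors bound at the X and Y boxes. Of 7 genes of these factors, 5 were tested, and Rfx5 and Rfxap were too dim. In the wild-type response 3 rose by small steps, namely Rfxank (1.36-fold), Nfyb (1.34-fold) and Nfyc (1.24-fold), with adjusted p = 0.0134, 0.027 and 0.0345 in limma, and none fell. Of all genes tested, 23.2% were called higher in this response, and 28.6% without transgenic control replicate 1. A second probe of Nfyc did not pass (adjusted p = 0.265). Leaving out wild-type control replicate 3 ended each of the 3 calls (adjusted p = 0.0827, 0.170 and 0.0994), as did leaving out wild-type tumour replicate 1 (0.0505, 0.0615 and 0.0940) or 3 (0.0950, 0.202 and 0.118). Nfyb and Nfyc were lost without transgenic tumour replicate 3 as well, and Nfyc without any other wild-type replicate. In transgenic against wild-type controls Rfxank was 1.38-fold higher with an adjusted p of 0.0485, a call lost in 19 of 22 alternatives.

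Among the genes listed as inducing Ciita, from the interferon gamma receptor to Irf1, 7 were tested. In wild-type cells with tumour material 4 rose and 1 fell. The kinase Jak2 rose 2.59-fold (log2 difference 1.37 ± 0.22 SE, adjusted p = 0.000413 in limma), and Spi1, which encodes the myeloid factor PU.1, rose 1.62-fold, from 3.33, 3.55 and 3.51 to 4.17, 4.17 and 4.16 (adjusted p = 0.000117). The receptor chains went apart, Ifngr1 falling 1.69-fold and Ifngr2 rising 1.31-fold (adjusted p = 0.00432 and 0.0428 in limma). The call for Ifngr2 was lost without wild-type control replicate 1 or 2 (adjusted p = 0.118 and 0.119) or any of the 3 wild-type tumour replicates (0.0800, 0.0818 and 0.207). Spi1 was 1.43-fold lower in transgenic than in wild-type cells with tumour material (adjusted p = 0.0334 in limma). Spi1 no longer passed when wild-type control replicate 3 was left out (adjusted p = 0.0720), nor without any wild-type tumour replicate (0.0842, 0.0615 and 0.335) or either transgenic tumour replicate (0.0509 and 0.310).

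Of 5 genes known to restrain class II expression, 3 rose in wild-type cells with tumour material. Socs1, an inhibitor of interferon signalling, went from 1.35, 1.32 and 1.5 to 6.79, 6.69 and 6.76 (40.3-fold, adjusted p = 7.13e-12 in limma). Socs3, a related inhibitor, went from 3.75, 2.27 and 3.47 to 7.41, 8.81 and 8.23 (30.5-fold, adjusted p = 7.25e-07). The cytokine Il10 went from -0.33, 0.03 and 0.09 to 3.06, 3.06 and 3.44 (9.68-fold, adjusted p = 1.22e-07).

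These 3 genes then parted by genotype. Il10 reached only 0.39 and -0.06 in transgenic cells with tumour material, 9.68-fold below wild-type cells (log2 difference -3.28 ± 0.24 SE, adjusted p = 4.2e-05 in limma), and its interaction was -2.82 ± 0.30 (adjusted p = 0.00082). Socs1 rose in transgenic cells as well, from 1.61, 1.32 and 1.36 to 6.12 and 6.17, and ended 1.52-fold below wild-type cells (adjusted p = 0.0202 in limma), a call lost without wild-type tumour replicate 1 or 3 (0.0574 and 0.272) or transgenic tumour replicate 3 (0.203). Socs3 was at -1.11, -1.74 and -1.56 in transgenic controls, 26.3-fold below wild-type controls (adjusted p = 2.94e-05 in limma), and at 7.09 and 7.21 with tumour material. Its interaction was 3.62 ± 0.57 (SE, adjusted p = 0.00671 in limma), and did not pass without wild-type tumour replicate 3 or transgenic tumour replicate 3 (adjusted p = 0.0842 and 0.129).

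**Figure D4:**
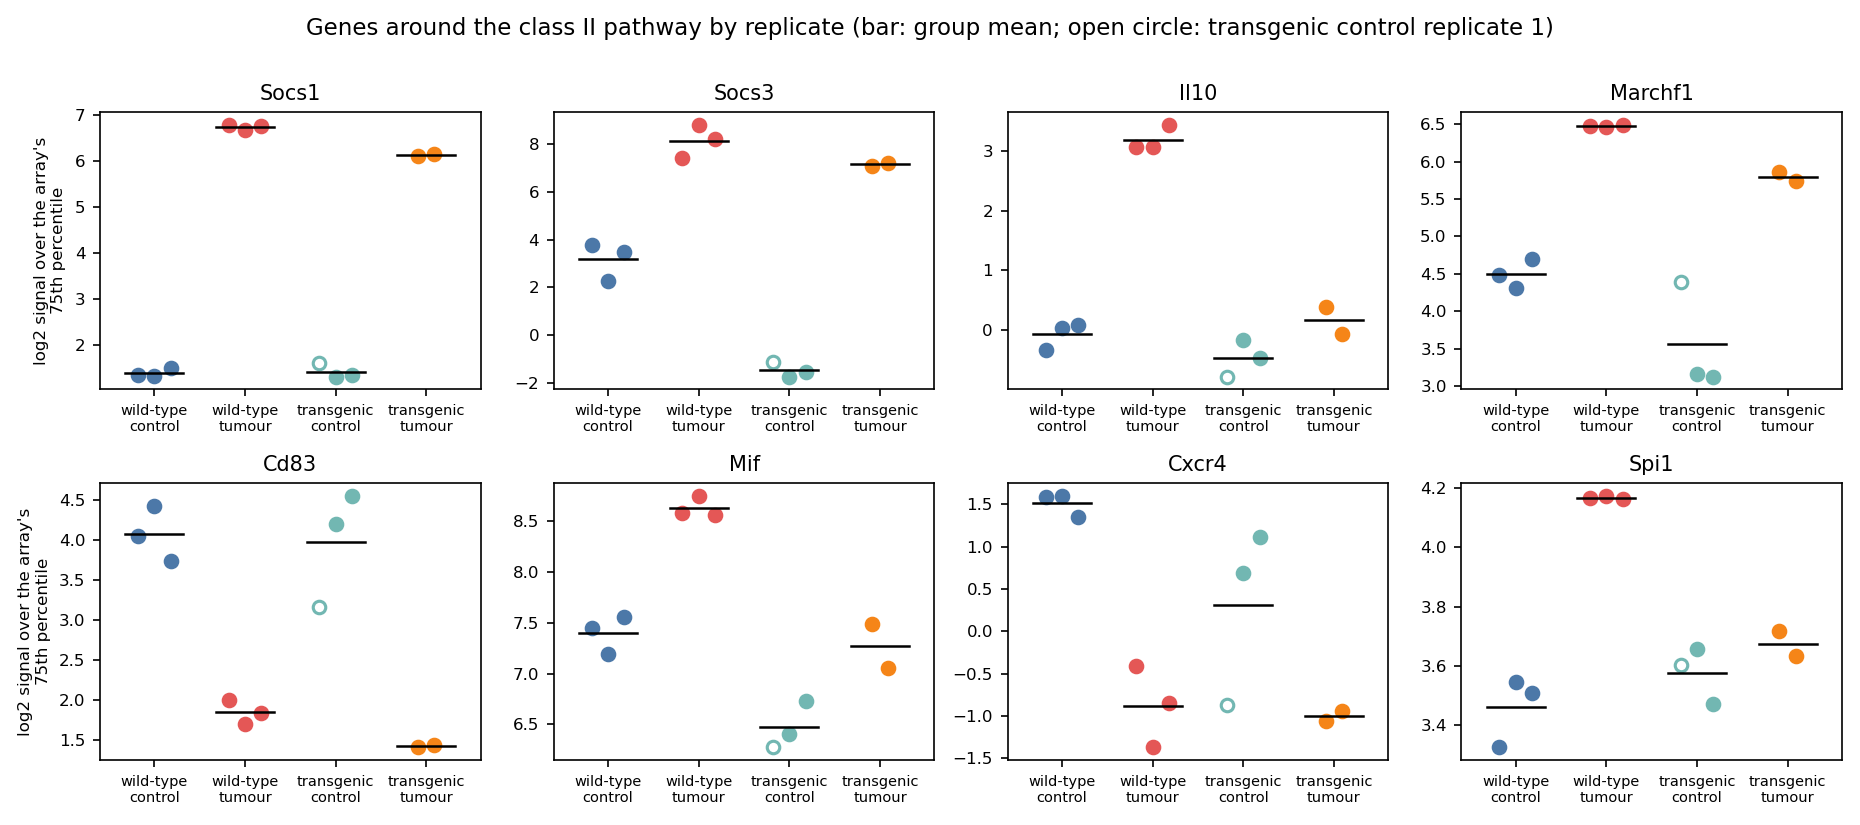
Log2 signal over the 75th percentile of the array (vertical axes, which differ in range) of 8 genes around the class II pathway in the 4 groups, 1 point per replicate with a bar at the group mean and transgenic control replicate 1 as an open circle. Il10 is high in wild-type tumour samples alone, whereas Socs1 is above 6 in both tumour groups, and the Marchf1 panel shows only its brighter probe.

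The partners of Cd74 at the surface also moved. Mif, its ligand, was at 7.45, 7.19 and 7.55 in wild-type controls and 8.58, 8.75 and 8.56 with tumour material (2.26-fold higher, adjusted p = 0.000276 in limma). It was at 6.27, 6.40 and 6.73 in transgenic controls and 7.49 and 7.05 with tumour material, below the wild-type cells in either medium (1.95-fold and 2.66-fold, adjusted p = 0.00958 and 0.00444 in limma). Of its 2 other probes, 1 did not pass in control medium (adjusted p = 0.0752). In control medium the call was lost without wild-type control replicate 3 or transgenic tumour replicate 3 (adjusted p = 0.0601 and 0.0635), and with tumour material without wild-type tumour replicate 3 or transgenic tumour replicate 3 (0.0672 and 0.367). Cxcr4, a co-receptor, fell 5.08-fold in wild-type cells (adjusted p = 0.000262 in limma), and Cd44 did not pass in any contrast with its brighter probe, though another probe did in this one (0.65 ± 0.18 SE, adjusted p = 0.0142).

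Other cells in the cultures could carry class II RNA, so their markers are given beside the result. Of 8 dendritic cell markers Flt3, Zbtb46, Cd209a, Xcr1 and Dpp4 were not above background on any array. Of the other 3, Itgax fell 2.72-fold in the wild-type response (from 2.66, 4.08 and 3.43 to 2.20, 2.12 and 1.75, adjusted p = 0.000593 in limma), and Ccr7 and Clec9a rose. The list summed to 7.79 to 18.3 in wild-type controls, 8.29 to 9.0 in wild-type tumour, 11.2 to 13 in transgenic control and 5.08 to 5.83 in transgenic tumour samples. The B cell marker Cd79b fell 6.68-fold in the wild-type response (adjusted p = 8.94e-05 in limma), from 1.29, 1.74 and 1.38 to -0.96, -1.88 and -1.15. Cd22, the other one tested, was at -0.13, 0.21 and -0.11 in controls and 0.19, 0.22 and 0.15 with tumour material and did not pass (adjusted p = 0.410).

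Markers of neutrophils and their precursors fell in the same response, 8 of 11 tested, and 1 rose. Mpo, the myeloperoxidase of their granules, fell 15.1-fold (adjusted p = 4.7e-06 in limma). Their summed signal was 239 to 257 in wild-type controls, 92.2 to 119 in wild-type tumour, 179 to 579 in transgenic control and 57.7 to 68.8 in transgenic tumour samples. Mpo was also 6.17-fold higher in transgenic than in wild-type controls (adjusted p = 0.00139 in limma), a log2 difference of 2.63 ± 0.37 that was 2.02 ± 0.22 without transgenic control replicate 1. The list did not move as one there. Of its 11 tested markers 4 were called higher and 1 lower, and 3 and 4 without that replicate. Of all 15826 genes 566 were called higher and 828 lower, and 1194 and 1510 without that replicate. Epithelial markers, for RNA of the lysate, were not above background on any array, in 4 of 4 genes. Of 4 T cell markers Cd3d and Cd3g were not above background on any array and Cd3e and Cd4 were above it on all 14. The list summed to 20.2 and 20.5 in transgenic controls 2 and 3 and to 6.54 in replicate 1. It summed to 6.11 to 6.87 in wild-type controls, 4.20 to 6.47 in wild-type tumour and 7.02 to 7.15 in transgenic tumour samples. The higher sums came through Cd4, at 4.17 and 4.20 in transgenic controls 2 and 3 against 1.80 to 2.10 in wild-type controls. Cd3e was at 1.10 and 1.05 in transgenic controls 2 and 3, within its range of 0.997 to 1.72 in wild-type controls. All 5 fibroblast markers were tested, and 2 rose in the wild-type response, of which Lum was at least 33.7-fold higher (adjusted p = 5.97e-12 in limma). That list summed to 1.36 to 22.3 in wild-type controls, 33.0 to 43.2 in wild-type tumour, 0.896 to 9.72 in transgenic control and 7.65 to 8.76 in transgenic tumour samples. The part of these cell types in the class II differences was not tested.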

How the data were processed

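Per the file headers, the deposited scanner files give each spot an intensity from which background and a spatial trend were already removed. Per the submitters' processing notes, they come from Agilent Feature Extraction 10.7.3.1. The deposited series matrix holds log2 values, which correlate at 0.999 or more with the log2 intensities and served as an alternative. RNA (200 ng per sample, per the labels) was labelled with Cy3.

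From the log2 intensity, the log2 of the 75th percentile of each array (83.9 to 144 in signal) was subtracted. Spots marked as non-uniform or as population outliers were left out. Probes were matched to symbols by RefSeq accession, and a probe stayed in where some group had it well above background on each of its arrays. The brightest probe stood for its gene (15826 genes). limma 3.58.1 (R 4.3.3) fitted the means of the 4 groups with the slide as a term and treated repeat arrays as correlated (0.072). At so low a correlation a repeat array counts in the fit almost as a separate sample. With the arrays of a replicate averaged and no slide term, Cd74 in control medium and H2-DMb1 with tumour material did not pass (adjusted p = 0.120 and 0.0637 in limma). P-values are two-sided and Benjamini-Hochberg adjusted over all genes, with a threshold of 0.05, and simulated data served to test the fit. With 3 replicates or fewer in a group, their number limits the precision, and if replicates share animals the p-values measure only the spread between these samples. The mean signal was not used here, so normexp took the median signal with an offset of 50.

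Named are all 9 members, at most 4 genes past the threshold per pathway list and contrast, genes that a sentence on a member needs, and the 6 genes most correlated with the mean of H2-Aa, H2-Ab1, H2-Eb1 and Cd74. Itga4, Cnnm2, Ltf and Otulinl were named after their values were seen. Members and lists were chosen with earlier results of these data known. Alternatives were other normalizations, probe rules, slides, blocks and leaving out each replicate. No pairing by replicate number was seen (correlations of same-numbered deviations from -0.216 to 0.203). With 3 replicates or fewer in a group, these correlations cannot exclude that same-numbered samples share an animal.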

Additional observations from a re-analysis of the deposited data

Results flagged for a closer look

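The response to tumour material differed between genotypes for both DM chains by the interaction test. For H2-DMa the interaction was 2.04 on the log2 scale (adjusted p = 0.0017 in limma): its mean went from 3.26 to 1.58 in wild-type cells and from 1.90 to 2.07 in transgenic cells. For H2-DMb1 it was 1.65 (adjusted p = 0.00429 in limma), with means from 4.63 to 3.15 and from 3.78 to 3.87. Of the genes around the pathway, Il10 had an interaction of -2.82, with means from -0.07 to 3.19 in wild-type cells and from -0.47 to 0.16 in transgenic cells. Socs3 had one of 3.62, with means from 3.17 to 8.15 and from -1.47 to 7.15. Groups of 3 or fewer replicates were not searched for single outlying values.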

How the results depend on the processing

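Each difference of a member was recomputed under up to 22 alternatives, giving 856 values, of which 789 kept their direction (where called) and their side of the threshold, 30 lost a call, 37 gained one and 0 reversed. Members called in the wild-type response ranged from 4 to 6 over all alternatives. For the transgene in control medium, 3 with all arrays became 5 under normexp, 0 on slide 2 alone, 1 with slide column 4 as a term, and 2 to 7 when 1 replicate was left out. For the transgene with tumour material, 1 became 0 under normexp, without the filter on dim probes, on slide 2 alone, with arrays averaged and with the replicate block, and 0 to 3 when 1 replicate was left out. For the transgenic response, 0 became 1 under normexp, 4 on slide 2 alone, and 0 to 5 when 1 replicate was left out. For the interaction, 2 became 0 on slide 2 alone, and 0 to 7 when 1 replicate was left out. Slide 2 alone has fewer arrays, and the cause of the other changes was not tested. With the replicate number as a block, 5, 3, 0, 0 and 2 members were called in the 5 contrasts in the order of the text, so among the members the block ended only the call of H2-DMb1 with tumour material (adjusted p = 0.0525). Of other calls in the text it ended those of Nfyc and Ifngr2 in the wild-type response (0.0517 and 0.0662), Rfxank in control medium (0.0765) and Spi1 and Socs1 with tumour material (0.0615 and 0.0586). The Marchf1 difference in the wild-type response reversed to -0.18 with the mean of its probes, which move in opposite directions. Quantile normalization turned the share of higher calls in the wild-type response from 58.0% to 48.7% and moved the median of all genes by less than 0.1. Depth is not given by arrays; H2-Ob and Ciita are limited by signal near background.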
